A study of Mus musculus with 24 samples.

Results

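Transcripts that are made by hepatocytes, the main cell type of the liver, were followed through 24 RNA-seq libraries of mouse quadriceps muscle. The set holds 37 of the 51912 genes in the count table, chosen by symbol among secreted proteins and enzymes of hepatocytes. They were picked with earlier results of these libraries known, including a shared movement with albumin (Alb), which is therefore given below as a description. Muscle came from animals aged 16 months, fasted overnight before collection. There were 6 males and 6 females on a Control diet, and 6 males and 6 females on a Low BCAA diet (less leucine, isoleucine and valine, from weaning onward). The labels name no genotype, drug or other agent for any group, and they do not say that each library is a separate mouse, and p-values cover only library-to-library spread. A number from 1 to 3 in each sample's code, of unstated meaning, was 3 in every Low BCAA male, 1 in every Control female, 2 or 3 in Control males and 1 or 2 in Low BCAA females.

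Hepatocytes secrete most plasma proteins, among them albumin, lipoprotein shells, clotting factors and protease inhibitors, and they house the urea cycle and the breakdown of aromatic amino acids and methionine. Their genes are switched on together by a small circle of liver transcription factors that includes the HNF1, HNF4, FOXA and C/EBP families. Skeletal muscle fibres are not known as a source of albumin, while a few other members, such as haptoglobin in fat cells, are also transcribed outside the liver.

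Library totals lay between 30597878 and 43804992 counts. A list of 14 skeletal muscle genes summed to between 154826 and 331148 CPM (counts-per-million, scaled by TMM factors) in the 24 libraries, so muscle transcripts were abundant in each of them. The 37 members together made up between 0.00231% and 0.862% of counts. Some libraries stood apart. Control male replicate 5 held 94.9 CPM of a list of 12 kidney genes against 0.382 to 1.03 CPM in the other Control males, and 5.44 CPM of Xist, the female X-inactivation transcript, against at most 0.626 CPM. Low BCAA male replicate 1 held 47.5 CPM of a list of 11 pancreatic acinar genes against at most 2.66 CPM in the other Low BCAA males, and 2.06 CPM of Xist. Control female replicate 3 held 1.13 CPM of the Y-linked Ddx3y, against at most 0.202 CPM in the other Control females and 67.2 to 111 CPM in males. Low BCAA female replicate 4 held 0.0776 CPM of Xist, against 282 to 400 CPM in the other females, and 0.0259 CPM of Ddx3y, so it carried neither sex's marker. These 4 libraries were also left out together in an added alternative.

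The promoters of 6 members are shown because 4 of these genes (Fga, Fgb, Fgg and Hpx) moved apart from Alb in the same libraries, while Alb and Gc kept a nearly fixed proportion. Each is the 250 bases before the transcript start, 5′ to 3′ on the gene's own strand, from RefSeq on GRCm38.p6, a later build than the one behind the counts. Capitals mark matches, on either strand, to the HNF1 core GTTAAT, the C/EBP element TTGCNNAA, the acute-phase element CTGGGAA, the FOXA element TGTTTAC or the HNF4 element CAAAGTCC.
Alb (chr5:90460620-90460869, plus strand): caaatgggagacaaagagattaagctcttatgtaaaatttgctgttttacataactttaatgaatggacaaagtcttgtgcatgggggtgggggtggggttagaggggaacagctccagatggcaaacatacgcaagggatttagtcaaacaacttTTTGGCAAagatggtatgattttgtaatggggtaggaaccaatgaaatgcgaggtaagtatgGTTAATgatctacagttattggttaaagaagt
Gc (chr5:89457899-89458148, minus strand): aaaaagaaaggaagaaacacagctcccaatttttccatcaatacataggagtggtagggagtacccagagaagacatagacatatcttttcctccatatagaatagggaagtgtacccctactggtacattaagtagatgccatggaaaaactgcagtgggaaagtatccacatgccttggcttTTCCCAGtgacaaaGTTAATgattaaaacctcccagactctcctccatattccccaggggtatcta
Fga (chr3:83025903-83026152, plus strand): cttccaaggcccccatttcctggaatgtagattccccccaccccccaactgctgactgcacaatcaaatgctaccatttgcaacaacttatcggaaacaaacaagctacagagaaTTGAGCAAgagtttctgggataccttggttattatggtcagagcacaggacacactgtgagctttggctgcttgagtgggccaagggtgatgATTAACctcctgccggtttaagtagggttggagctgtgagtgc
Fgb (chr3:83049864-83050113, minus strand): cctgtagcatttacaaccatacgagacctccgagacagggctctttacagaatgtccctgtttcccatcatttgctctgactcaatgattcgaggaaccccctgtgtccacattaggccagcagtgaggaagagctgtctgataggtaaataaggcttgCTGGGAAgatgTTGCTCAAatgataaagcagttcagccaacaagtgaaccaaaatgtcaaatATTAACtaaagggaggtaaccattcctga
Fgg (chr3:83007474-83007723, plus strand): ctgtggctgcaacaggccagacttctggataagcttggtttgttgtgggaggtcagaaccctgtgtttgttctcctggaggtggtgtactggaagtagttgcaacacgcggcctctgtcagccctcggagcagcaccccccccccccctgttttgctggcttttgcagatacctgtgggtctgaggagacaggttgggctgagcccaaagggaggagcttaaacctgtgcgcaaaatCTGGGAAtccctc
Hpx (chr7:105600117-105600366, minus strand): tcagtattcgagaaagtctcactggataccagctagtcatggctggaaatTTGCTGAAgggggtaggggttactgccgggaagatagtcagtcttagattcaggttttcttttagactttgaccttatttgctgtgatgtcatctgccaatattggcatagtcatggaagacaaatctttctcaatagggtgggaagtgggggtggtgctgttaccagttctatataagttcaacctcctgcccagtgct
The 3 fibrinogen promoters lie on chromosome 3, and those of Alb and Gc on chromosome 5. Of the 37 members, 28 had a RefSeq promoter entry. The HNF1 core was present in 5 of the 28 and in 6.43% of 32851 promoters of the same length. The C/EBP element was present in 11 of the 28 (9.56% of all promoters), the acute-phase element in 4 (9.10%), the FOXA element in 3 (3.17%) and the HNF4 element in 1 (1.20%). The members with the acute-phase element were Fgb, Fgg, Gc and Tdo2. Members were counted as genes with a match in any of their promoter entries, while the percentages are over entries, so the units differ. These are letter matches only.

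Alb, the carrier that makes up most plasma protein, gave the widest view of the set. In Control males its lowest, median and highest levels were 1.93, 47.4 and 180 CPM. In Low BCAA males they were 8.91, 409 and 2590 CPM. In females they were 5.47, 123 and 679 CPM on the Control diet and 2.60, 9.51 and 319 CPM on the Low BCAA diet. The highest library thus had 1339 times the lowest, and all 4 groups overlapped. The lowest library still held 67 Alb counts, and 4 libraries exceeded 500 CPM: Control female replicate 2 together with replicates 1, 2 and 4 of the Low BCAA males. In bulk tissue, fewer cells of a type and less RNA per cell cannot be told apart.

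**Figure D1:**
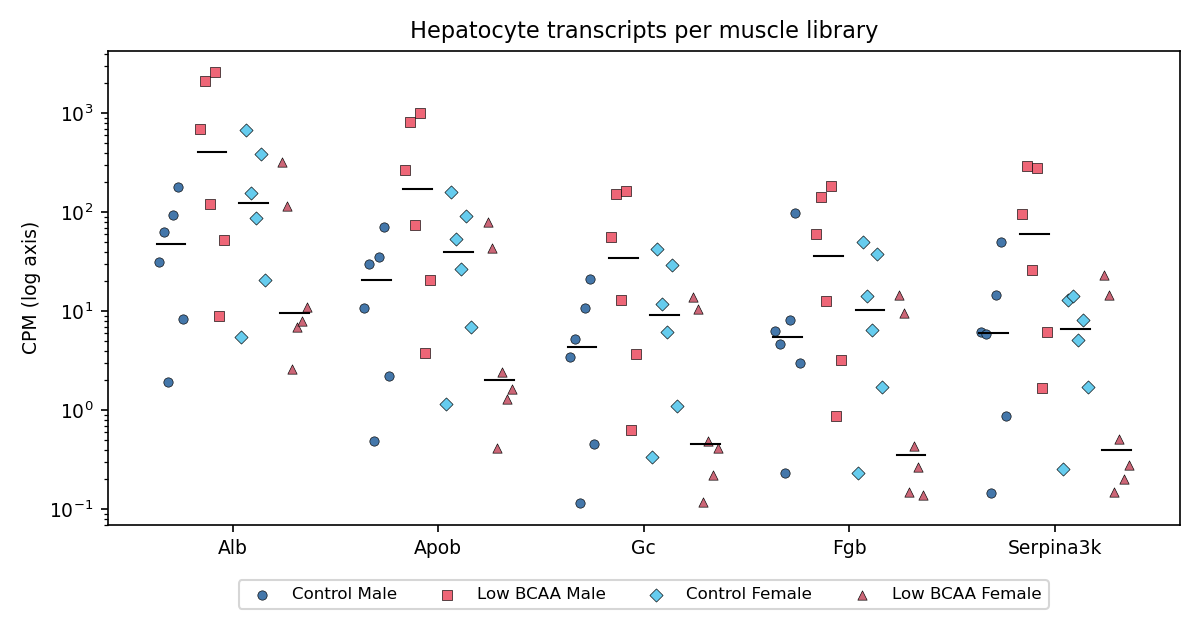
Levels of Alb, Apob, Gc, Fgb and Serpina3k in each library, in CPM on a log axis. Each point is 1 library, bars are medians of 6 libraries, and colours mark the 4 groups. The groups overlap for each gene, and Alb spans 1.93 to 2590 CPM.

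Other secreted members covered a like range. Apob, the structural protein of very-low-density lipoprotein, had lowest, median and highest levels of 0.491, 20.4 and 70.6 CPM in Control males and 3.77, 171 and 1007 CPM in Low BCAA males. In females the levels were 1.17, 40.0 and 161 CPM on the Control diet and 0.418, 2.04 and 80.2 CPM on the Low BCAA diet. Gc, the vitamin D carrier, stood at 0.116, 4.37 and 21.3 CPM in Control males and 0.637, 34.5 and 165 CPM in Low BCAA males. In females Gc stood at 0.339, 9.06 and 42.2 CPM on the Control diet and 0.119, 0.455 and 13.8 CPM on the Low BCAA diet. For both genes, as for Alb, Low BCAA males had the highest median and Low BCAA females the lowest, and the ranges overlapped. Of the 37 members, 29 were detected in every library; the 8 others were listed at 0 in at least 1, most often Dio1, the thyroid hormone deiodinase, at 0 in 7 libraries.

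Diet and sex were compared first on the members' CPM, with edgeR's quasi-likelihood test over 18098 genes and Benjamini-Hochberg adjusted p-values, a gene being called under 0.05. All 37 members passed the filter on low counts. In males, 37 of 37 had a higher estimate on the Low BCAA diet, with a median log2 difference of 3.25 beside 0.02 over all genes tested, and 0 were called (percent called over all genes: 0%). The smallest adjusted p among members was 0.0919, for Slc10a1, the bile acid importer (log2 difference 1.93 ± 0.46 SE), and Alb differed by 3.88 ± 1.42 (adjusted p = 0.187). At an unadjusted p under 0.05 there were 30 members, beside 15.2% of all genes. The members moved together with Alb, so such counts of members, here and below, are not counts of independent results. DESeq2 called 10 members and 479 genes, and limma-voom called 0 and 0. With edgeR, leaving out Low BCAA male replicate 3, 5 or 6 gave 131, 125 or 46 genes and 1, 2 or 1 members. Without the 4 libraries over 500 CPM of Alb, the members' median in males was -0.32 and the Alb estimate -0.05. Those libraries were picked by Alb level itself and include Low BCAA male replicates 1, 2 and 4 but no Control male. A smaller difference is thus built into that choice.

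In females, 35 of 37 members had a lower estimate on the Low BCAA diet, with a median of -1.45, and 0 were called (percent called 0%). Alb differed by -1.53 ± 1.29 (adjusted p = 0.754). The median was -5.01 with the number of the sample code as a factor, -0.76 without Control female replicate 2 and -2.22 without Low BCAA female replicate 1. At an unadjusted p under 0.05 there was 1 member, beside 8.41% of all genes, and DESeq2 and limma-voom called 0 members. The difference between the diet effects of the sexes, male minus female, was above 0 in 37 of 37 members (median 4.57). Of these, edgeR called 0 (percent called 0%), and 28 had an unadjusted p under 0.05, beside 5.9% of all genes. DESeq2 called 2 members and limma-voom 0. The median of this difference was 10.1 with the code number as a factor. It was 0.43 without the 4 libraries rich in Alb, a choice by Alb level that itself shrinks the difference. The sex comparisons below share libraries with the diet comparisons.

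On the Control diet, males minus females gave a median of -0.82 over the members, with 0 of 37 called (percent called 0.414%). At an unadjusted p under 0.05 there was 1 member, beside 7.77% of all genes, and DESeq2 and limma-voom called 0 members. The median was -0.23 without Control female replicate 2, -1.84 without Control male replicate 5 and -4.42 with the code number as a factor. On the Low BCAA diet 37 of 37 members were higher in males, with a median of 3.76 and 1 of 37 called (percent called 0.746%). At an unadjusted p under 0.05 there were 37 members, which moved together with Alb and are not independent, beside 11.4% of all genes. Without the 4 libraries over 500 CPM of Alb the median was 0.19 and the Alb estimate -0.31. Here too the choice by Alb level removes the Low BCAA males with the most Alb, so a smaller difference is built in. That member was Slc10a1, higher in males by 1.97 ± 0.46 (adjusted p = 0.0449). This call did not hold: 0 members were called in 15 of the 24 fits that left out 1 library. The same was found in 6 of the 11 other settings tried and without the 4 libraries that stood apart. DESeq2 called 16 members, and its total over all genes is given further below. The number in the sample codes differs between every Low BCAA male (3) and every Low BCAA female (1 or 2), so it cannot be told apart from sex there. Within number 3, Alb stood at 31.8 and 1.93 CPM in the Control males (replicates 1 and 3) against 8.91 to 2590 CPM in the Low BCAA males. Within number 1, Alb stood at 7.89 and 11.1 CPM in Low BCAA females (replicates 5 and 6) against 5.47 to 679 CPM in Control females.

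Relative to Alb the spread of most members was narrower. Each member's count was divided by the Alb count of its library and given per 1000 Alb counts, and the standard deviation (SD) of the log2 ratio was taken over 24 libraries (0.5 added to both counts). The SD of log2 Alb CPM itself was 2.96. Over the 36 other members the SD of the log2 ratio ran from 0.47 to 2.27 with a median of 0.88, beside a median of 2.99 over 18097 tested genes, and 22 of the 36 were under 1. For Slc10a1, Cyp2e1 and Hp, however, the highest value over the lowest was 14.4, 80.9 and 88.1 in CPM. It was larger for their ratio to Alb, at 118, 214 and 153. Since the members were chosen with their link to Alb known, these values are a description and no test. A library was counted as departing when the exact 95% Poisson interval of the observed over the expected count, the latter from the ratio pooled over 24 libraries, lay wholly above 2 or below 0.5. The interval covers counting error only. Of 864 pairs of member and library, 105 departed (12.2%), 76 above and 29 below. No departure was found for 13 members, 1 to 5 departing libraries for 18, and 6 or more for 5. Where the expected count was small a library could not depart downward, so no departure need not mean an even ratio. Dio1, among the 13, had 288 counts over all libraries and an SD of 1.24. The pooled ratio rests mostly on Low BCAA male replicates 2 and 4, which held 218617 Alb counts, 66.4% of the total. Departures in 6 or more libraries were found for 4 members with the median of the library ratios as reference, for 5 without the 4 libraries over 500 CPM of Alb, and for 13 against the summed other members in place of Alb.

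**Figure D2:**
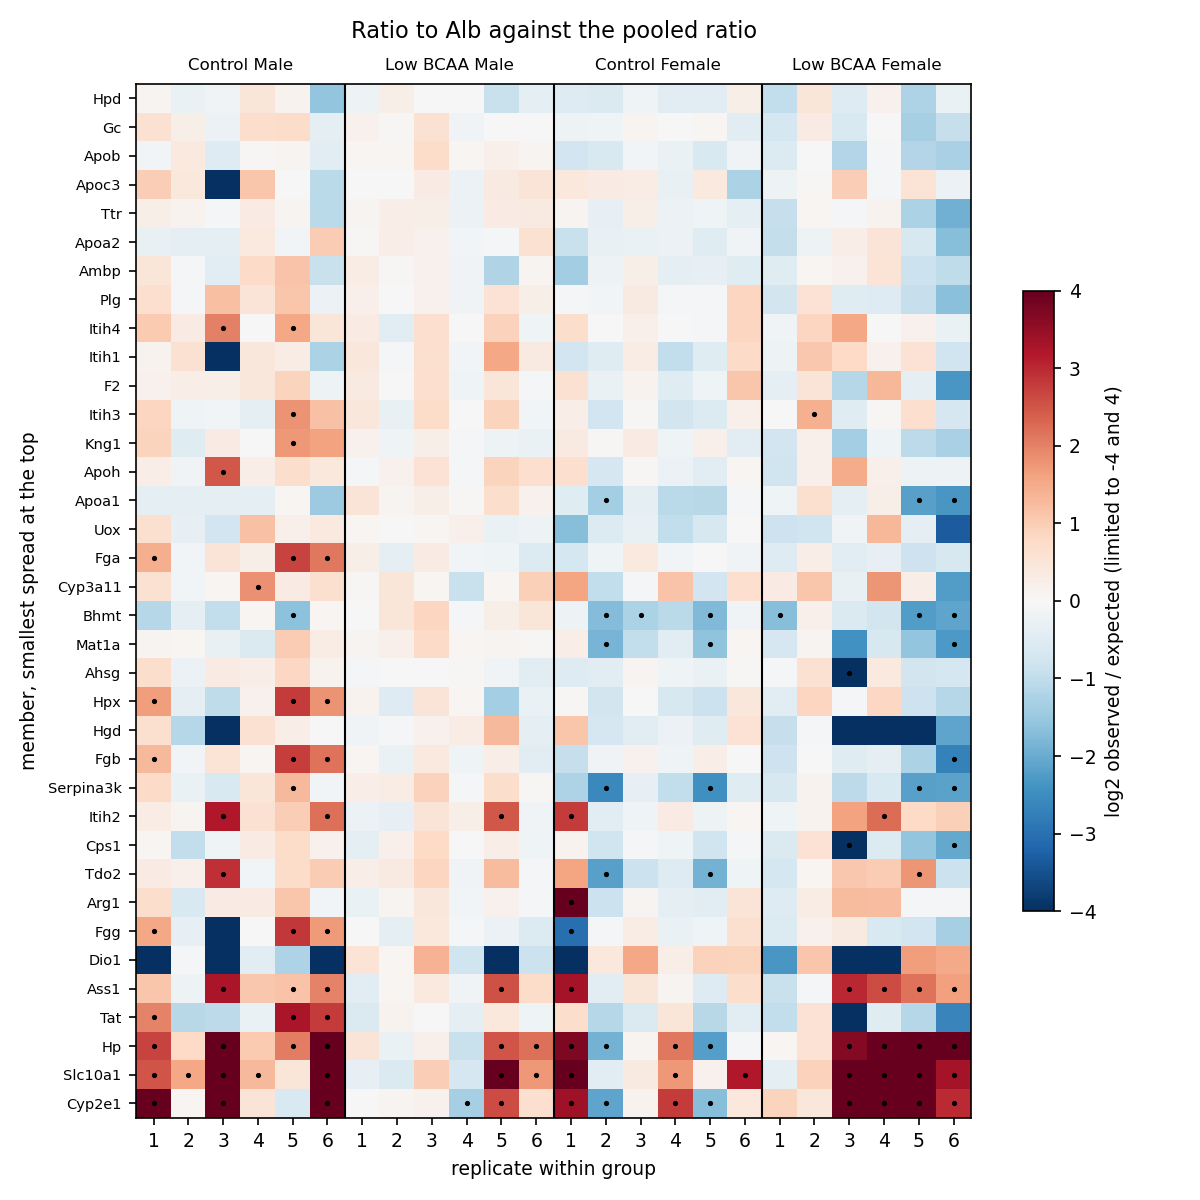
Each row is a member, ordered by the SD of its log2 ratio to Alb, each column a library, and the colour is log2 of the observed count over that expected from Alb, limited to -4 and 4; counts of 0 take the lowest colour. Black dots mark the 105 departures, which fall mostly in Cyp2e1, Slc10a1, Hp and Ass1 at the bottom, and in the fibrinogen genes, Hpx and Tat of Control male replicates 1, 5 and 6.

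The closest followers came from several roles. Hpd, an enzyme of tyrosine breakdown, had an SD of 0.47 and a pooled ratio of 33.2 per 1000 Alb counts. Its lowest, median and highest ratios were 11.0, 33.0 and 46.1 in Control males and 17.9, 30.6 and 38.6 in Low BCAA males. In females they were 22.4, 24.8 and 38.7 on the Control diet and 14.1, 25.3 and 46.5 on the Low BCAA diet. Gc had an SD of 0.48 and ratios between 28.2 and 118, and Apob an SD of 0.50 and ratios between 148 and 607. The group ranges of Hpd and Gc overlapped. For Apob the ratios of Low BCAA males (383 to 607) lay above those of Control females (213 to 336) and Low BCAA females (148 to 371), and overlapped those of Control males (254 to 478). None of the 3 departed in any library. The lipoprotein proteins were the most even role: Apoc3, an inhibitor of lipoprotein lipase, Apoa2 of high-density lipoprotein and Apob never departed, Apoh (beta-2 glycoprotein) departed in 1 library, and Apoa1, the core of high-density lipoprotein, lay below in 3. Among carriers, Ttr, which binds thyroxine and retinol-binding protein, had an SD of 0.55.

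Among clotting and kinin proteins, prothrombin (F2) and plasminogen (Plg) never departed and had SDs of 0.68 and 0.63, and kininogen (Kng1) departed in 1 library. Of the inter-alpha-trypsin inhibitor chains, Itih1 never departed, Itih3 and Itih4 lay above in 2 libraries each, and Itih2 lay above in 5. Ambp, which encodes their light chain bikunin together with alpha-1-microglobulin, had an SD of 0.56 and no departure. Hgd of tyrosine breakdown and Uox, the urate oxidase, did not depart, though Hgd was listed at 0 in 4 libraries, where the expected counts were too small for the criterion. Cyp3a11, a drug-metabolizing cytochrome P450, lay above in Control male replicate 4 only. Ahsg (fetuin-A) lay below in Low BCAA female replicate 3 only, where it was listed at 0. Cps1, the first enzyme of the urea cycle, lay below in 2 libraries.

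Of tested genes outside the set, those that kept the most even ratio to Alb were also liver products. The smallest SD of all 18097 genes, 0.41, belonged to Serpina1b, an alpha-1 antitrypsin gene whose near-identical copies make its count uncertain. Afm, the vitamin E carrier afamin, followed with 0.50 and Pzp, an alpha-2-macroglobulin relative, with 0.52. The others of the first 15 outside the set were Slco1b2, Nat8f2, Serpina1a, Pigr, Hc, Cyp2d26, Abcb11, Hsd17b13, Cyp2j5, Ces1c, Cfi and Abcg5, with SDs from 0.57 to 0.73. Of the 50 smallest SDs, 15 were members.

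Lists of non-member genes were then tested for a slope of log2 expression on log2 Alb CPM, with group coefficients in the same edgeR fit, where a slope of 1 means proportional to Alb. In that fit 477 genes were called (percent called 2.64%), 466 of them with a positive slope (2.57%). Of 41 tested secreted hepatocyte proteins outside the set 37 were called, all positive, and of 52 hepatocyte enzymes 43. Pzp had a slope of 1.04 ± 0.04 (adjusted p = 1.21e-15) and the iron carrier Trf one of 0.40 ± 0.07 (adjusted p = 0.000276). By contrast complement C3, at 62.1 CPM or more in each library, had a slope of 0.15 ± 0.05 (adjusted p = 0.300). The bile acid enzyme Cyp27a1 had -0.01 ± 0.03 (adjusted p = 0.998) and Pck1, of glucose synthesis, 0.33 ± 0.11 (adjusted p = 0.201). Of 8 tested liver transcription factors 6 were called, and Hnf4a, a master regulator of hepatocyte genes, had a slope of 0.97 ± 0.05 (adjusted p = 2.58e-12) at 0 to 32.0 CPM. The other 2, not called, were Cebpa, of the C/EBP family, with 0.18 ± 0.10 (adjusted p = 0.779) and Prox1 with 0.19 ± 0.06 (adjusted p = 0.201).

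Genes of the liver's other cells were called in part. Of 6 Kupffer cell (liver macrophage) genes 3 were called positive, Cd5l with a slope of 0.55 ± 0.11 (adjusted p = 0.00226) and, named after their values were seen, Clec4f with 0.97 ± 0.07 (adjusted p = 7.56e-10) and Marco. Folr2 and Timd4 of the same list had -0.02 ± 0.05 and 0.13 ± 0.07 (adjusted p = 0.989 and 0.721). Of 7 genes of the liver sinusoidal endothelium 2 were called (Clec4g and Oit3), of 5 stellate cell genes 2 (Colec10 and Lrat), and of 3 bile duct genes 0. These names, too, were picked after their values were seen. The most abundant endothelial genes were not called by edgeR: Stab2 (-0.01 ± 0.03), Lyve1 (-0.09 ± 0.06) and Fcgr2b (0.05 ± 0.05). Nor were the most abundant stellate cell genes: Reln (0.01 ± 0.04), Ecm1 (-0.01 ± 0.04) and Ngfr (0.03 ± 0.03). No gene was called among 14 skeletal muscle, 11 white adipocyte, 6 brown adipocyte, 6 erythroid and 8 macrophage genes by edgeR. Ttn, the giant sarcomere protein, had a slope of -0.01 ± 0.03.

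The first kind of departure was upward and came from members that did not fall in step where Alb was low. Slc10a1 lay above its expected count in 14 libraries, Hp (haptoglobin, the haemoglobin binder) in 12, Cyp2e1 (the ethanol-oxidizing cytochrome P450) in 10 and Ass1 (argininosuccinate synthase of the urea cycle) in 9. In Control male replicate 3, which had the least Alb at 1.93 CPM, Cyp2e1 stood at 10.1 CPM, Hp at 6.30, Slc10a1 at 1.73 and Ass1 at 0.953 CPM. In the same library Gc stood at 0.116 CPM and Hpd at 0.0578 CPM.

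Cyp2e1 had lowest, median and highest levels of 10.1, 26.5 and 144 CPM in Control males, 11.4, 88.0 and 478 CPM in Low BCAA males, 5.91, 29.0 and 129 CPM in Control females and 18.6, 29.0 and 125 CPM in Low BCAA females. It never fell below 5.91 CPM, and its ratio ran from 48.6 to 10414 per 1000 Alb counts. Slc10a1 had 1.73, 2.55 and 3.52 CPM in Control males, 2.44, 5.55 and 22.5 CPM in Low BCAA males, 2.33, 3.42 and 6.93 CPM in Control females and 1.56, 2.44 and 3.43 CPM in Low BCAA females. Hp had 6.30, 17.8 and 72.2 CPM in Control males, 4.93, 60.7 and 172 CPM in Low BCAA males, 1.95, 12.5 and 36.9 CPM in Control females and 3.25, 16.3 and 35.9 CPM in Low BCAA females. The groups overlapped for each of these genes. Their slopes on log2 Alb, given as a description, were 0.41 ± 0.11 for Cyp2e1, 0.41 ± 0.09 for Hp, 0.24 ± 0.04 for Slc10a1 and 0.59 ± 0.05 for Ass1, beside 1.04 ± 0.03 for Gc.

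**Figure D3:**
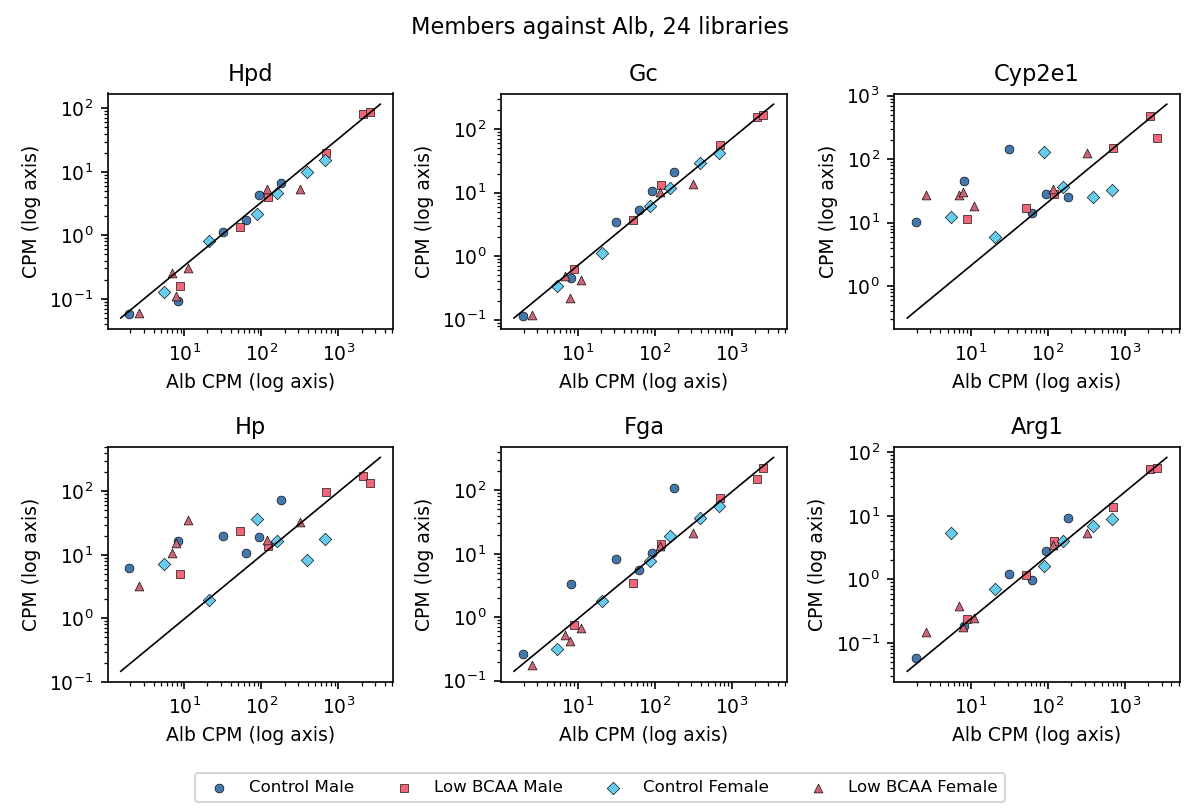
CPM of 6 members against Alb CPM in 24 libraries, both on log axes; the line is the pooled ratio and colours mark groups. Hpd and Gc keep to the line, Cyp2e1 and Hp level off where Alb is low, Fga lies above it in 3 Control males, and Arg1 lies above it in Control female replicate 1.

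The second kind of departure joined 5 members in 3 libraries. The fibrinogen chains Fga, Fgb and Fgg, the haem carrier hemopexin (Hpx) and tyrosine aminotransferase (Tat) each lay above in exactly the same 3 libraries: Control male replicates 1, 5 and 6. Fga stood at 257 per 1000 Alb counts in replicate 1 (95% interval 229 to 286), 606 in replicate 5 (585 to 627) and 403 in replicate 6 (316 to 507). In the other 3 Control males it stood at 87.8, 134 and 111, and in the 18 libraries of the other groups between 53.5 and 123. Fgb stood at 198, 546 and 365 in the 3 libraries and at 74.5, 119 and 86.4 in the other Control males. Hpx stood at 195, 419 and 210 against 46.0, 29.9 and 68.8. Tat stood at 123, 297 and 215 against 14.5, 14.9 and 26.0. For all 5 genes the 3 libraries were above the 21 others.

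Acute-phase and fasting genes outside the set were first read as whole lists, whose sums per 1000 Alb counts did not set these libraries apart. The summed fasting list stood at 13271, 4075 and 49362 per 1000 Alb counts in Control male replicates 1, 5 and 6 and at 36518, 817063 and 6113 in replicates 2, 3 and 4. The acute-phase list stood at 1277, 704 and 5249 against 415, 10761 and 400.0. In CPM, however, the acute-phase sum was 40.6, 127 and 43.4 in replicates 1, 5 and 6. It was 26.2, 20.8 and 37.4 in replicates 2, 3 and 4. The 3 libraries were thus the highest Control males, though within the range of Low BCAA males (29.3 to 180 CPM). The fasting sum was 422, 735 and 408 CPM against 2301, 1581 and 571 CPM. It ran from 248 to 2398 CPM in Control females, 488 to 4419 CPM in Low BCAA females and 2421 to 4942 CPM in Low BCAA males. The fasting list includes Pdk4, which muscle also expresses. Igfbp1, an insulin-like growth factor binding protein of the fasting list, stood at 63.4, 188 and 82.9 per 1000 Alb counts in Control male replicates 1, 5 and 6 and at 7.75 or less in the 21 others. Fgl1, a fibrinogen relative, stood at 15.2, 49.1 and 38.7 in the 3, and at 1.24, 14.9 and 4.55 in the other Control males. The fatty acid hydroxylase Cyp4a14 was at the other end. It stood at 18.4 and 12.6 in Control male replicates 1 and 5 and was listed at 0 in replicate 6, where a count of 0 allows up to 16.6, while Low BCAA males ranged from 107 to 233. Control male replicate 4, which did not depart in fibrinogen, stood at 19.8, and Control male replicate 2 at 128. Igfbp1, Fgl1 and Cyp4a14 were singled out after their values were seen. Control male replicate 5 is the library with kidney transcripts, and replicates 1 and 6 held 0.382 and 0.822 CPM of that list. Any part of kidney transcripts in the departures of the 5 members was not tested.

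**Figure D4:**
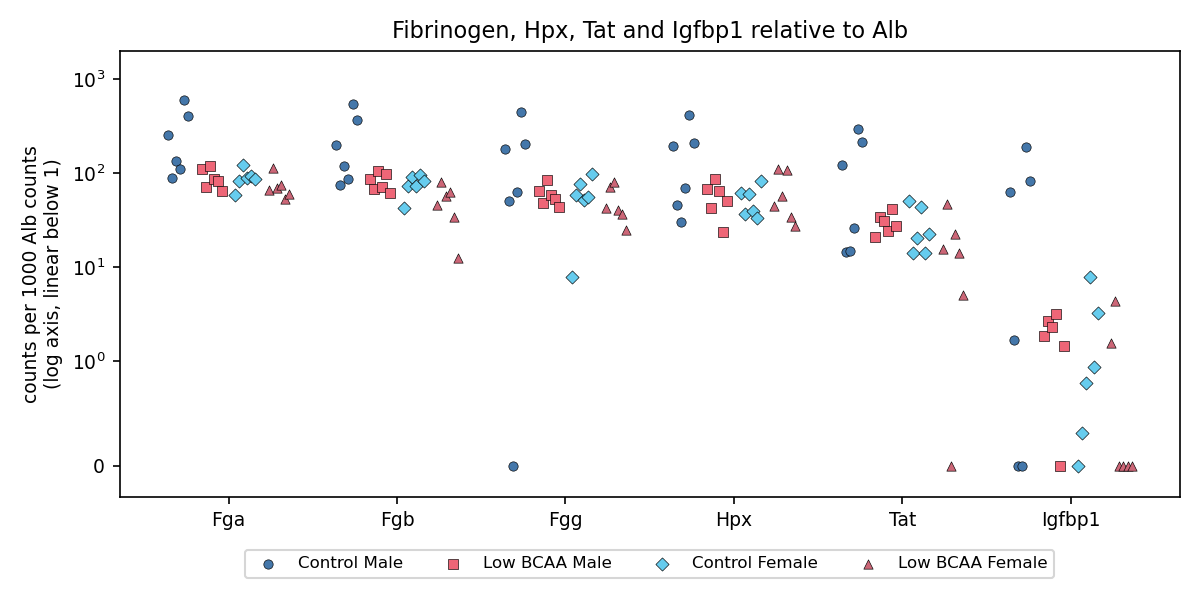
Counts of Fga, Fgb, Fgg, Hpx, Tat and Igfbp1 per 1000 Alb counts in each library, on a log axis that is linear below 1; colours mark groups and points follow replicate order. Control male replicates 1, 5 and 6 stand above the other libraries, with Fga at 257, 606 and 403 per 1000.

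The third kind of departure was downward, relative to the pooled ratio, and lay mostly in female libraries. Bhmt, which remethylates homocysteine to methionine, lay below in 7 libraries, Serpina3k, a contrapsin-type protease inhibitor with close paralogs, in 4, and Mat1a, which makes S-adenosylmethionine, and Apoa1 in 3 each. Bhmt had lowest, median and highest ratios of 38.1, 76.0 and 127 per 1000 Alb counts in Control males, 116, 153 and 218 in Low BCAA males, 35.2, 52.8 and 109 in Control females and 25.4, 54.2 and 138 in Low BCAA females. Of its 7 low libraries 6 were female and the other was Control male replicate 5. The pooled ratio of Bhmt was 119, resting mostly on Low BCAA male replicates 2 and 4, and the Control male median also lay under it. Serpina3k had 74.6, 131 and 277 in Control males, 107, 138 and 215 in Low BCAA males, 19.0, 53.2 and 90.0 in Control females and 25.4, 63.8 and 126 in Low BCAA females. All 4 of its low libraries were female.

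Control female replicates 2 and 5, which held 22261 and 13746 Alb counts, shared most of these. Both lay below in Serpina3k, Bhmt, Mat1a, Tdo2 (the first enzyme of tryptophan breakdown), Hp and Cyp2e1, and replicate 2 also in Apoa1. In replicate 2 Serpina3k stood at 19.0 (17.3 to 20.9) and in replicate 5 at 20.7 (18.4 to 23.3), beside a pooled ratio of 114. In Low BCAA females, replicate 6, with 399 Alb counts, lay below in 6 members (Apoa1, Fgb, Cps1, Serpina3k, Mat1a and Bhmt), and replicate 5 in 3 of these (Apoa1, Serpina3k and Bhmt).

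Diet was then tested with log2 Alb CPM as a covariate, which asks whether a gene differs between diets beyond Alb. In males 0 of the 36 other members were called by edgeR (percent called 0.0166%), 15 estimates being above 0 and 21 below, and 10 members had an unadjusted p under 0.05 beside 8.20% of all genes. The log2 estimate for Low BCAA minus Control was -1.75 ± 0.37 for Fga and -1.66 ± 0.41 for Fgb. Both had the smallest adjusted p of the members (0.336). It was -2.04 ± 0.61 for Tat (adjusted p = 0.410). Slc10a1 had 0.82 ± 0.33 (adjusted p = 0.520) and Apob 0.18 ± 0.22 (adjusted p = 0.878). In females 0 of 36 were called (percent called 0%), with 2 at an unadjusted p under 0.05 beside 11.1% of all genes. In the interaction 0 were called (percent called 0%), with 7 at an unadjusted p under 0.05 beside 3.71% of all genes. The ratio departures in Control males thus did not pass as a diet difference.

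A departure in a single library belonged to Arg1, the arginase that closes the urea cycle and that myeloid cells also make. In Control female replicate 1 it stood at 973 per 1000 Alb counts (856 to 1101), from 251 Arg1 counts and 258 Alb counts, against 13.0 to 57.5 in the 23 others. Looked up after that value was seen, 3 further genes were highest in the same library on the CPM scale among the Control females: Lcn2 (13.5 CPM, against at most 2.65), Serpina3n (23.8 CPM, against at most 11.8) and Spp1 (17.5 CPM, against at most 1.98). Their part in the Arg1 value was not tested.

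Liver transcripts that differ by sex gave a separate reading of the same libraries. Major urinary proteins such as Mup20 and Mup7 are made mainly by male liver, and Cyp3a41a and Cyp2a4 mainly by female liver; all belong to families of near-identical genes, so single-gene counts are uncertain. Mup20 stood at 5.52 to 119 per 1000 Alb counts in 11 of 12 male libraries and was listed at 0 in Control male replicate 3, where the 67 Alb counts allow up to 44.8. In female libraries it was at 0 to 1.41 in 10 of 12. The exceptions were Control female replicate 3 at 18.5 (15.3 to 22.2) and Low BCAA female replicate 4 at 59.5 (34.0 to 96.6). Mup7 stood at 36.8 (32.2 to 41.8) and 132 (92.0 to 183) in the same libraries, and at 26.8 in Low BCAA female replicate 6.

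Cyp3a41a ran the other way. It stood at 57.5 and 62.9 per 1000 Alb counts in Control female replicates 2 and 5, and at 17.4 and 46.1 in Low BCAA female replicates 1 and 2. Low BCAA males held at most 0.256, and Control males at most 4.01 apart from replicate 3, at 44.8 from the library with 67 Alb counts. Control female replicate 3 held 20.1 (16.8 to 24.0) beside its Mup20, so transcripts of both kinds were present, with Ddx3y at 1.13 CPM. Low BCAA female replicate 4 held none, which allows up to 11.2, and Control male replicate 5 held Cyp2a4 at 11.5 (8.77 to 14.7) beside its Xist. The only genes called for diet in males with Alb as covariate, Sult2a1 (adjusted p = 0.0117), Cyp3a41a (adjusted p = 0.0151) and Cyp2a4 (adjusted p = 0.0178), are female-biased liver genes at or near 0 in every Low BCAA male. With Control male replicate 5 and the other 3 libraries that stood apart left out, 0 genes were called.

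**Figure D5:**
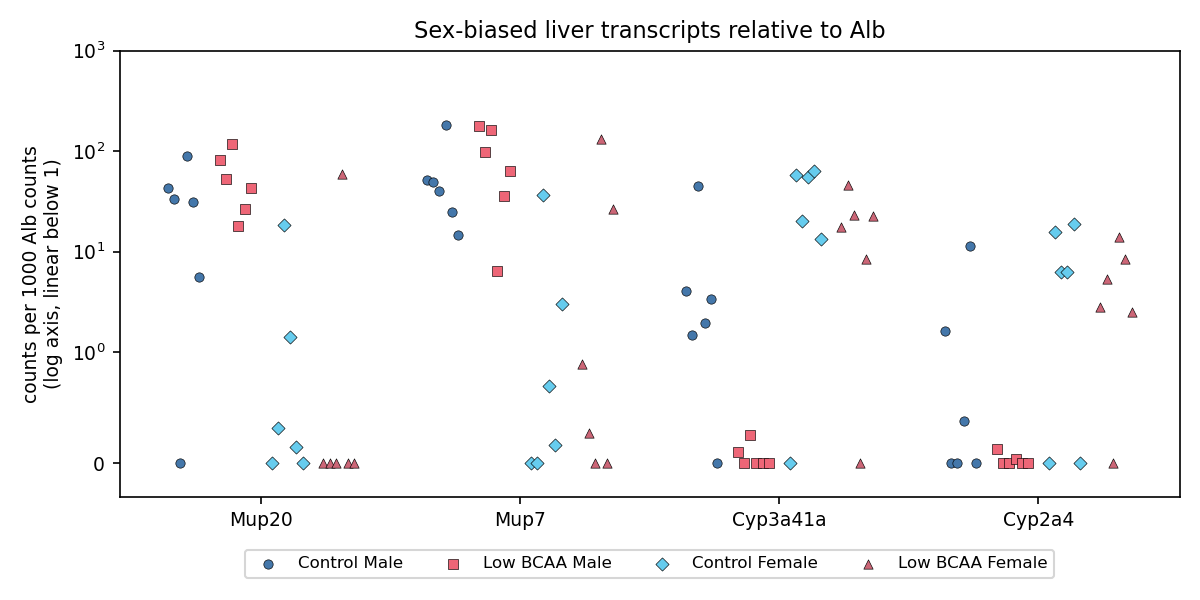
Counts of the male-biased Mup20 and Mup7 and the female-biased Cyp3a41a and Cyp2a4 per 1000 Alb counts, on a log axis that is linear below 1; colours mark groups. Control female replicate 3 and Low BCAA female replicate 4 stand among the males for Mup20, at 18.5 and 59.5 per 1000.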

How the data were processed

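Total RNA of quadriceps muscle was sequenced, and the authors deposited RSEM expected counts per gene, unscaled, on mm9 per the submitters' processing notes; for aligner and versions, not given in the sources used here. Whole numbers made up 88.4% of values. Members were matched by symbol, and the members, lists and tests were chosen with earlier results of these data known. Text names all members, the 15 non-members with the most even ratio to Alb, the 3 genes of highest mean CPM per list, and sex-biased genes over 100 counts; other names were chosen after their values were seen, and a gene that this rule takes is not reported here. Counts were rounded for edgeR 4.0.16 (TMM, filterByExpr, quasi-likelihood test, 20 residual degrees of freedom, common biological coefficient of variation 35.2%) in R 4.3.3; ratios used unrounded counts, in Python 3.11.15 with scipy 1.17.1. Both scripts were tested on simulated data. Alternatives were DESeq2 1.42.0, limma-voom 3.58.1, other scalings, filters and covariates, other ratio references, and leaving out libraries.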

Additional observations from a re-analysis of the deposited data

Results flagged for a closer look

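Single libraries far from the other 5 of their group were looked for in 188 sets of values (Alb CPM, ratios to Alb, summed marker lists and Xist). Of the values, 31 were flagged. Chance alone flags about 1 in 20 sets of independent, normally distributed values. Marker lists and Xist were examined in unlogged CPM, and all ratios of a library share the same Alb count. The share of 1 in 20 is therefore only a rough guide.

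Ratios to Alb were examined on the log2 scale with 0.5 added to both counts, and 15 values stood apart; they are given in counts per 1000 Alb counts. In Control male replicate 6 Apoa1 was 27.6 (others 57.5 to 80.9) and Ttr 22.1 (others 44.8 to 59.4). In Control male replicate 3 Apoh was 164 (others 26.1 to 47.4). In Low BCAA male replicate 3 Apob was 607 (others 383 to 423) and Mat1a 312 (others 191 to 214). In Low BCAA male replicate 5 Itih2 was 188 (others 26.9 to 48.7) and Ambp 8.93 (others 18.5 to 25.0), and in replicate 6 Ahsg was 69.4 (others 86.3 to 97.5). Control female replicate 1 held 5 of the values: Fgb at 42.6, Fgg at 7.75, Itih2 at 236, Arg1 at 973 and Ass1 at 514, where the others reached 96.3, 98.4, 42.3, 33.9 and 83.8. In Low BCAA female replicate 3 Ahsg was listed at 0 (others 56.3 to 145), and in replicate 1 Dio1 was 0.175. That Dio1 value, from 2 counts, lies within the others (0 to 2.82) without the 0.5, so it stands apart only on the scale with it.

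Marker lists, in summed CPM, stood apart as follows. The kidney list was 94.9 in Control male replicate 5. The pancreatic acinar list was 47.5 in Low BCAA male replicate 1 and 2.90 in Low BCAA female replicate 6. The intestine list was 237 in Low BCAA male replicate 4, where Apoa4 alone held 227 CPM, and 28.2 in Low BCAA female replicate 1. Apoa4 had a slope on log2 Alb of 0.99 ± 0.09 (edgeR adjusted p = 8.73e-09). Low BCAA male replicate 4 had the most Alb, 2590 CPM, while replicate 2, with 2105 CPM of Alb, held 61.9 CPM of the intestine list. Whether the Alb level accounts for the value in replicate 4 was not tested. The white adipocyte list was 2230 in Control female replicate 4, and the brown adipocyte list was 36.0 in Control male replicate 4, 369 in Low BCAA male replicate 2 and 27.6 in Control female replicate 4. The erythroid list was 205 in Control male replicate 1, 1226 in Control female replicate 3 and 411 in Low BCAA female replicate 6. The male-biased liver list was 5.28 in Control female replicate 3 (others 0.504 to 1.95). Xist was 5.44 CPM in Control male replicate 5, 2.06 in Low BCAA male replicate 1 and 0.0776 in Low BCAA female replicate 4.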

How the results depend on the processing

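No paired analysis was possible because the labels give no replicate numbers shared between groups, and those used here only name libraries. Estimates for Alb and the members' median kept their direction in 240 of 240 leave-one-out values. The members' median and Alb ran from 2.72 to 4.22 and 3.24 to 4.56 for diet in males, -2.22 to -0.76 and -2.94 to -0.76 in females, 3.97 to 5.67 and 4.66 to 6.82 for the interaction, -1.84 to -0.23 and -2.49 to -1.06 for sex on Control, and 3.28 to 4.71 and 2.95 to 5.00 on Low BCAA. Without the 4 libraries over 500 CPM of Alb, diet in males became -0.32 (members' median) and -0.046 (Alb). Male minus female on Low BCAA became 0.19 and -0.31, and the interaction median 0.43. These libraries were picked by Alb level itself, so smaller differences are built into that choice and it is no separate check. With the number of the sample code as a factor, medians were -5.01 for diet in females, 10.1 for the interaction and -4.42 for sex on the Control diet.

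Calls depended on the tool. DESeq2 called 479 genes and 10 members for diet in males, 1 gene in females, 14 genes and 2 members for the interaction, 149 genes for sex on the Control diet, and 511 genes and 16 members on the Low BCAA diet. At an adjusted p under 0.1, edgeR called 129 genes and 1 member for diet in males, 113 genes for sex on Control, and 316 genes and 3 members on Low BCAA. Diet in males gave 39 genes with library totals only and 4 with only the 2 groups compared. Male minus female on Low BCAA gave 77 genes with limma-voom, 78 with library totals, 27 with the 2 groups alone, 5 with the code number as a factor, 36 without the Alb-rich libraries and 75 without the 4 libraries that stood apart (an alternative chosen after seeing the data), and 0 members in each of these and without the filter. Sex on Control gave 7 genes with the code number. The cause was not tested.

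Leaving out 1 library gave 0 to 131 genes and 0 to 2 members for diet in males, and 64 to 246 genes and 0 to 3 members for sex on Low BCAA; the lowest gene count came without Low BCAA male replicate 4 and the highest without Low BCAA male replicate 5. The slope on Alb called 310 genes without the Alb-rich libraries. Diet in males with Alb as covariate called 0 genes with 5 other members as covariate and without either set of 4 libraries. Members departing in 6 or more libraries numbered 13 against the summed other members and 4 or 5 otherwise. Pseudocounts moved the SD of 7 members. Ratios are limited by the Alb count, which was 67 in the poorest library.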

Other observations

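Liver lists outside the comparisons above also moved with Alb in part, in the same fit of log2 expression on log2 Alb CPM by edgeR (2.57% of all genes called positive). Of 6 periportal genes 4 were called, and of 8 pericentral genes 4; members are left out of these counts. Glul, the glutamine synthetase of pericentral hepatocytes and also of muscle, had a slope of -0.04 ± 0.07 at 144 to 1147 CPM, and Oat, ornithine aminotransferase, had 0.02 ± 0.02. Of 15 genes of the fasting list 8 were called; Pdk4, which restrains glucose oxidation in muscle and liver, had -0.02 ± 0.10 at 136 to 3858 CPM. Of 10 acute-phase genes 6 were called, among them ceruloplasmin (Cp) with 0.15 ± 0.04 (adjusted p = 0.0296), while Serpina3n had 0.16 ± 0.09 (adjusted p = 0.790).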
